A study of Mus musculus with 6 samples.

Results

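The genes described here are 38 members of the p53 response and of the BCL2 family, taken by gene symbol from the 22958 RefSeq gene entries counted in each library. They fall into 28 genes of the p53 network, meaning p53 itself (Trp53), its regulators Mdm2 and Mdm4 and 25 p53 targets, and 10 genes of the BCL2 family, the caspases and their inhibitor Xiap. Bax, Bbc3 and Pmaip1 belong to both and were counted with the p53 network. Expression was measured by RNA sequencing of polyadenylated RNA in E11.5 mouse brain endothelial cells, which had been sorted for the surface antigen CD31 (PECAM1). The 3 Axin1 libraries came from cells overexpressing Axin1, labelled Cdhrs5CreERT2:R26Axin1IL+/-, and the 3 control libraries from cells with wildtype Axin1, labelled Cdhrs5CreERT2:R26Axin1IL-/-. Mice of both groups were C57BL/6 x 129/Sv, carried the tamoxifen-inducible Cre and were exposed to tamoxifen given to the mother at E9.5. The driver of the Cre is spelled Cdhrs5 in the labels without further explanation, and the labels state no litter, pool or sex. AXIN1 holds together the complex that sends beta-catenin to degradation, and the series asked how expression changes when it is overexpressed.

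p53 is a transcription factor that is held at low protein level by the ubiquitin ligase MDM2 and is stabilised after DNA damage or other stress, so its activity is read from its target genes rather than from its own RNA. Its targets arrest the cell cycle, repair DNA, expose death receptors and permeabilise mitochondria, and one of them is Mdm2 itself, which closes a feedback loop. The BCL2 family decides whether mitochondria release cytochrome c: BAX and BAK1 form the pore, BCL2, BCL2L1 and MCL1 hold them back, and the BH3-only proteins (among them BBC3, PMAIP1, BCL2L11, BID and BAD) oppose the guardians. Released cytochrome c assembles APAF1 and caspase 9, death receptors activate caspase 8, and XIAP blocks caspases. In the developing mouse, BCL2L11 is known for the regression of the hyaloid vessels of the eye.

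Promoter sequences are shown for 4 p53 targets that recur below, Mdm2, Ccng1, Bax and Cdkn1a, since a p53 response element is built from a pair of copies of a 10-base unit. Each is the RefSeq window from 250 bases before to 50 bases after an annotated start in GRCm38.p6, written 5′ to 3′ on the gene's own strand. Capitals mark exact matches to the p53 decamer consensus, which is its own reverse complement, so both strands were searched at once. The windows are chr10:117710709-117711008 (minus strand) for Mdm2, chr11:40755237-40755536 (minus) for Ccng1, chr7:45466849-45467148 (minus) for Bax and chr17:29090729-29091028 (plus) for Cdkn1a, which is 1 of 2 windows listed for that gene.
Mdm2: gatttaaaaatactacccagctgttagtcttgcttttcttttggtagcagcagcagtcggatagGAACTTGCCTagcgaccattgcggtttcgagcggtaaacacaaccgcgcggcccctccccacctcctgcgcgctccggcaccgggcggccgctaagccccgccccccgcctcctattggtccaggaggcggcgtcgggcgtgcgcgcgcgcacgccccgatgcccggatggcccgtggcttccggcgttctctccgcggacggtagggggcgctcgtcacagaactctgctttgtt
Ccng1: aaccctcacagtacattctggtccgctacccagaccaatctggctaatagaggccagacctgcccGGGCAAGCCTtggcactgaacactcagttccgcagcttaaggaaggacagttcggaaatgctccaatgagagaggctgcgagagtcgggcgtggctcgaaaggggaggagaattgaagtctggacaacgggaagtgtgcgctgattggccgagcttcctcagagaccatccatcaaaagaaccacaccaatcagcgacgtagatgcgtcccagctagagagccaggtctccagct
Bax: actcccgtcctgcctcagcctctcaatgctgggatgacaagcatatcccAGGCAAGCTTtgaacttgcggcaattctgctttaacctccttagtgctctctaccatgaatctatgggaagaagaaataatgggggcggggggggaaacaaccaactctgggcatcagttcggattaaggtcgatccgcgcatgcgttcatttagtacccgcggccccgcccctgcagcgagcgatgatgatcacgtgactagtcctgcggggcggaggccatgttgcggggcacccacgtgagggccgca
Cdkn1a: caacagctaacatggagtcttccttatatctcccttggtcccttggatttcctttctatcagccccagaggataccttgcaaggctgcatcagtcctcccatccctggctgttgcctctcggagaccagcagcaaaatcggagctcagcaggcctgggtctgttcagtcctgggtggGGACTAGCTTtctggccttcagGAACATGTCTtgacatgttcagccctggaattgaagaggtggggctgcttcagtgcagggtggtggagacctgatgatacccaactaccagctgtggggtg
Counted from the annotated start, the match began at -186 in Mdm2, at -185 in Ccng1 and at -201 in Bax. The 2 matches in Cdkn1a began at -73 and -51 with other bases between them, and whether they form a response element together was not tested. Of the p53 network genes with a window in the table, 8 of 20 held a match (40.0%), the other 4 being Trp53, Sesn1, Aen and Polk, against 0 of 10 BCL2 family, caspase and Xiap genes and 9.55% of 27025 genes in all. By windows the shares were 32.1% of 28 for the p53 network and 8.36% of all 32851. A match describes these letters only. The p53 network genes were grouped as p53 targets or regulators beforehand, so their higher share is no independent result.

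Libraries held 11633853 to 14234409 reads in the Axin1 group and 10772492 to 13035808 in the control group. Axin1 itself stood at 79.8, 62.2 and 66.2 CPM in Axin1 libraries 1, 2 and 3, against 25, 17.6 and 20.8 CPM in controls 1, 2 and 3 (CPM, reads scaled to library size after TMM normalisation, the unit of all levels below unless RPKM is named). Pecam1, the gene of the sorted antigen, lay between 1182 and 1331 CPM in the Axin1 group and between 1199 and 1455 CPM in the controls. The 15 macrophage and microglia markers, all detected in every library, summed to 635, 2216 and 3994 CPM in Axin1 libraries 1, 2 and 3 and to 1195, 1891 and 1323 CPM in controls 1, 2 and 3. Axin1 library 3 thus held the most macrophage RNA and Axin1 library 1 the least. The 15 pan-endothelial markers summed to between 10520 and 12000 CPM in Axin1 libraries and between 10690 and 10990 CPM in controls. The 8 brain endothelial markers summed to between 1715 and 2043 CPM in Axin1 libraries and between 3942 and 4375 CPM in controls, with a median log2 fold change of -1.76, and edgeR called 5 of them lower (0.49% of all genes were) and 0 higher. The 13 megakaryocyte and platelet markers summed to 1029, 2760 and 3696 CPM in Axin1 libraries 1, 2 and 3 and to 2110, 2077 and 2267 CPM in controls 1, 2 and 3. The 10 erythroid markers summed to 243, 1256 and 2661 CPM in Axin1 libraries 1, 2 and 3. In controls 1, 2 and 3 they summed to 693, 1850 and 3033 CPM. The part of these differences in the values below was not tested.

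Nearly all members of the p53 network leaned higher in the Axin1 libraries, while the BCL2 family, caspase and Xiap genes were evenly split. Of 27 tested p53 network genes, 24 had a positive log2 fold change (88.9%), with a median of 0.43 and a range from -0.16 (Ddb2) to 1.31 (Eda2r). Of the 10 BCL2 family, caspase and Xiap genes, 5 were positive and 5 negative, with a median of 0.01 and a range from -0.24 (Casp9) to 0.45 (Bcl2l1). Over all 12661 tested genes 52.5% were positive and the median was 0.02. No gene of either group passed edgeR's quasi-likelihood test after Benjamini-Hochberg adjustment over all tested genes, a threshold that 0.845% of all genes passed. At an unadjusted p under 0.05 the test found 7 of the 27 higher and 0 lower, namely Mdm2, Sesn2, Trp53inp1, Zmat3, Eda2r, Bax and Polk, and 1 of the 10 higher, Bcl2l1. Over all genes 9.06% were higher and 8.14% lower at that level. DESeq2 called 4 of the p53 network (Mdm2, Eda2r, Trp53inp1 and Bax) and Bcl2l1, all higher, and it called 6.17% of the genes to which it gave an adjusted p, 3.45% of them as higher. In these bulk libraries, fewer cells of a type and less RNA per cell cannot be told apart. The only member not tested was Gdf15, a stress-induced cytokine and p53 target, which had 3, 7 and 0 reads in Axin1 libraries 1, 2 and 3 and 0, 0 and 2 reads in controls 1, 2 and 3.

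**Figure D1:**
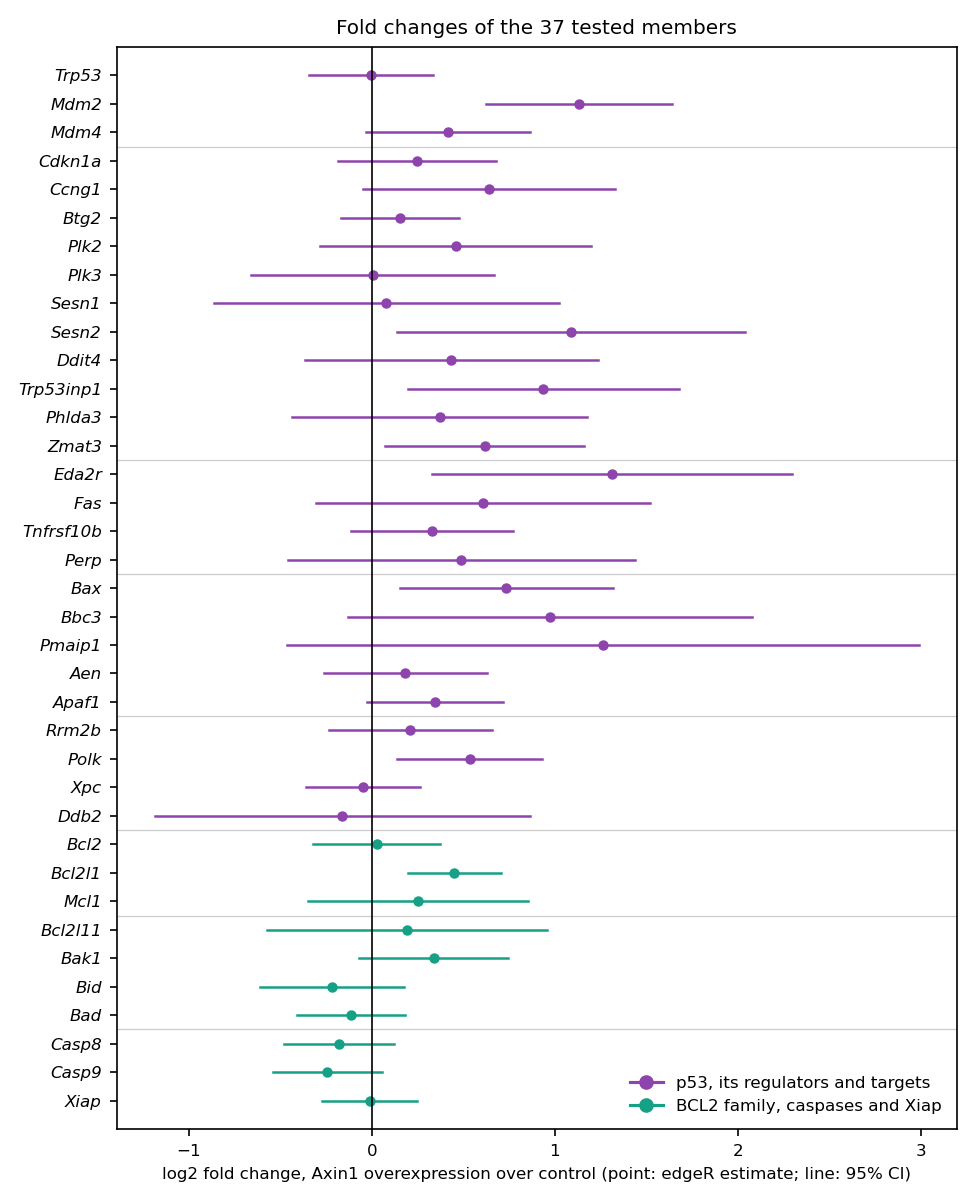
Log2 fold change (x axis, Axin1 overexpression over control, from edgeR) of the 37 tested members, one gene a row and grouped by role, with 95% confidence intervals from 3 libraries a group. Most p53 network genes (purple) lie right of 0, up to Eda2r at 1.31, whereas BCL2 family, caspase and Xiap genes (green) lie on both sides between -0.24 and 0.45.

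Trp53 RNA was abundant and similar in both groups. It read 696, 648 and 517 CPM in Axin1 libraries 1, 2 and 3, against 724, 545 and 598 CPM in controls 1, 2 and 3, so that the groups overlapped throughout. Its log2 fold change was -0.004 (95% confidence interval -0.34 to 0.33, edgeR adjusted p 0.996). Mdm2, which encodes the ubiquitin ligase of p53 and is a target of p53, had the smallest p of all members. It read 175, 122 and 154 CPM in Axin1 libraries 1, 2 and 3, against 80.3, 48.0 and 77.4 CPM in controls 1, 2 and 3. Every Axin1 library lay above every control. Its mean was 150.2 ± 26.7 CPM in Axin1 libraries and 68.6 ± 17.9 CPM in controls (SD, n = 3 each), which corresponds to a log2 fold change of 1.13 (SE 0.22, 95% confidence interval 0.62 to 1.64). The adjusted p was 0.0635 by edgeR and 8.1e-05 by DESeq2. Without the low-count filter the edgeR adjusted p of Mdm2 was 0.0398, and over the 6 fits that left out 1 library it lay between 0.0529 and 0.198. Mdm4, the MDM2-related inhibitor of p53, read 31.1, 25.9 and 35.4 CPM in Axin1 libraries and 28.4, 20.4 and 20.3 CPM in controls (log2 0.42, edgeR adjusted p 0.326). Per transcript length, the RPKM of Mdm2 divided by that of Trp53 was 0.137, 0.103 and 0.164 in Axin1 libraries 1, 2 and 3, against 0.0609, 0.0483 and 0.071 in controls 1, 2 and 3. The ratio to Mdm4 was 4.88 ± 0.655 in the Axin1 group and 3.00 ± 0.745 in the controls (SD, n = 3 each).

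**Figure D2:**
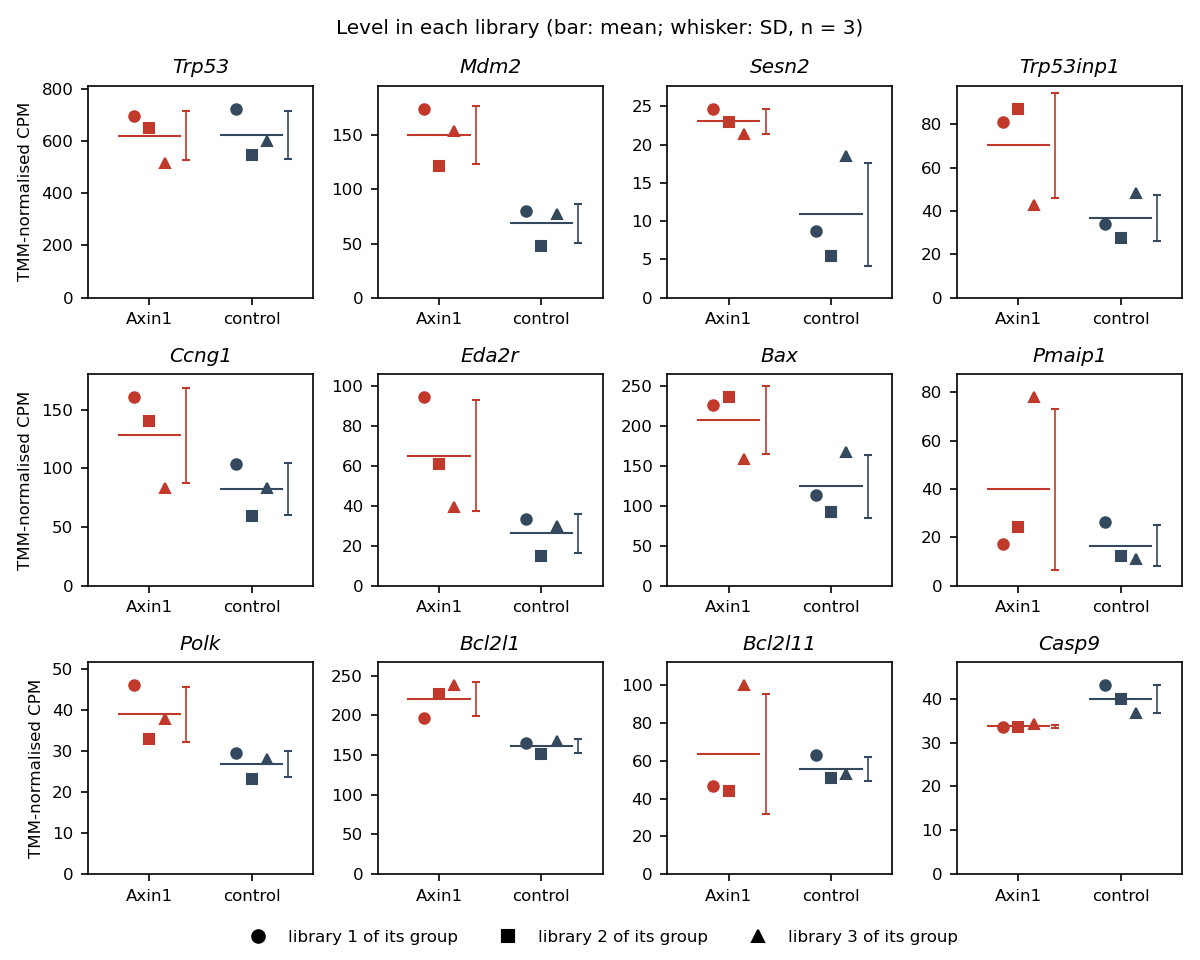
TMM-normalised CPM (y axis, from 0) of 12 members in each library, Axin1 overexpression left and control right, with the group mean as a bar and the SD (n = 3) as a whisker. Mdm2, Sesn2, Eda2r, Polk and Bcl2l1 do not overlap between groups on the high side and Casp9 on the low side, Trp53 overlaps throughout, and Pmaip1 and Bcl2l11 stand high in Axin1 library 3 alone (78.1 and 100.2 CPM).

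Among targets that act on the cell cycle and growth, all 11 tested had a positive log2 fold change, with a median of 0.43, and 0 passed edgeR's test (adjusted p 0.201 or more). Cdkn1a encodes p21, the inhibitor of cyclin-dependent kinases through which p53 arrests the cell cycle. It read 338, 334 and 320.4 CPM in Axin1 libraries 1, 2 and 3, against 345, 197 and 295 CPM in controls 1, 2 and 3. The groups overlapped, with control 2 far below the other libraries, and the log2 fold change was 0.24 (95% confidence interval -0.19 to 0.68, edgeR adjusted p 0.554), with 0.045 when control 2 was left out and 0.42 when control 1 was. Sesn2, an antioxidant and mTORC1-restraining sestrin that the integrated stress response also induces, read 24.7, 23 and 21.4 CPM in Axin1 libraries 1, 2 and 3. Controls 1, 2 and 3 read 8.66, 5.44 and 18.5 CPM. The groups did not overlap, yet control 3 lay close to the Axin1 libraries (log2 1.09, SE 0.41, edgeR adjusted p 0.235), and leaving out control 3 gave a log2 value of 1.69 (edgeR adjusted p 0.00845). In that fit 5.37% of all genes were called, 3.97% as higher, and Sesn2 and Bax were the members called. With any other single library left out, the edgeR adjusted p of Sesn2 lay between 0.311 and 0.502. Its relative Sesn1 had a log2 fold change of 0.08 (95% confidence interval -0.86 to 1.02), and 0.50 without control 3. The difference between the 2 sestrins was not tested.

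Trp53inp1, whose product promotes p53-dependent death and autophagy, read 81.2, 87.3 and 42.6 CPM in Axin1 libraries 1, 2 and 3, against 34.1, 27.7 and 48.5 CPM in controls 1, 2 and 3. Axin1 libraries 1 and 2 stood well above the controls while Axin1 library 3 fell among them (log2 0.94, SE 0.31, edgeR adjusted p 0.201, DESeq2 adjusted p 0.0266). The same layout held for Ccng1, an atypical cyclin and early p53 target, at 161, 140.1 and 82.8 CPM in Axin1 libraries and 104, 59.4 and 83.3 CPM in controls (log2 0.64, edgeR adjusted p 0.326). It held for Zmat3, an RNA-binding p53 target, at 78.1, 77.8 and 48.8 CPM in Axin1 libraries and 44.5, 33.9 and 55.2 CPM in controls (log2 0.62, edgeR adjusted p 0.239). Phlda3, an inhibitor of AKT, had the same order at a low level (9.83, 8.13 and 4.93 CPM in Axin1 libraries, 5.95, 3.99 and 7.81 CPM in controls).

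The remaining members of this role had intervals that included 0. Plk2, a polo-like kinase, was the most abundant member at 2357, 1262 and 1666 CPM in Axin1 libraries 1, 2 and 3, against 1784, 1016 and 1046 CPM in controls 1, 2 and 3 (log2 0.46, edgeR adjusted p 0.507). Leaving out Axin1 library 1 gave 0.19 and leaving out control 1 gave 0.77. Btg2, an antiproliferative gene, had a log2 fold change of 0.15 and Ddit4, an inhibitor of mTORC1, one of 0.43, while the stress kinase gene Plk3 stood at 0.01. Btg2, Plk2 and Plk3 are also known as immediate early genes. Of 18 dissociation stress and immediate early genes examined beside them, 15 had a positive log2 fold change (median 0.55) and 0 passed edgeR's test, with 7 higher and 0 lower at an unadjusted p under 0.05 and 2 called higher by DESeq2. Hspa1a, a heat shock chaperone gene, read 36.4, 15.8 and 38.1 CPM in Axin1 libraries and 8.93, 8.36 and 9.47 CPM in controls (edgeR adjusted p 0.0561). The part of dissociation stress in the p53 network values was not tested.

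Each of the 4 death receptor and membrane targets had a positive log2 fold change, with a median of 0.55. Eda2r, an ectodysplasin receptor of the TNF receptor family, had the largest fold change of all members. It read 94.5, 60.9 and 39.4 CPM in Axin1 libraries 1, 2 and 3, against 33.4, 15 and 30.2 CPM in controls 1, 2 and 3. The groups did not overlap, and the Axin1 libraries spread widely among themselves. Its log2 fold change was 1.31 (SE 0.41, 95% confidence interval 0.33 to 2.30), at an adjusted p of 0.187 by edgeR and 0.00446 by DESeq2. Fas, the receptor of FAS ligand, read 7.99, 22.3 and 22.6 CPM in Axin1 libraries and 14.4, 9.43 and 10.8 CPM in controls (log2 0.61, edgeR adjusted p 0.481). Axin1 library 1 was the lowest of all 6 libraries for Fas and the highest for Eda2r. The part of macrophage RNA, also lowest in Axin1 library 1, in the Fas values was not tested. Tnfrsf10b, the mouse TRAIL receptor gene, had a log2 fold change of 0.33, and Perp, a membrane protein gene of desmosomes, one of 0.49 at a level of 1.53 to 3.31 CPM.

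All 5 targets of the mitochondrial death pathway had a positive log2 fold change, with a median of 0.73. Bax, which encodes a pore-forming effector of cell death, read 227, 237 and 159 CPM in Axin1 libraries 1, 2 and 3, against 114, 91.9 and 168 CPM in controls 1, 2 and 3. Axin1 libraries 1 and 2 lay above all controls, but Axin1 library 3 and control 3 crossed. Its mean was 208 ± 42.5 CPM in Axin1 libraries and 125 ± 39.2 CPM in controls (SD, n = 3 each), or 0.73 higher on the log2 scale (SE 0.25), at an adjusted p of 0.201 by edgeR and 0.0378 by DESeq2. Leaving out control 3 gave Bax a log2 value of 1.00 (edgeR adjusted p 0.0327). With any other single library left out, the edgeR adjusted p of Bax lay between 0.211 and 0.455. In the GRCm38 annotation 12.2% of its exon bases are shared with a second gene on the same strand. Bbc3, which encodes the BH3-only protein PUMA, read 4.31, 2.34 and 4.41 CPM in Axin1 libraries and 2.89, 1.07 and 1.65 CPM in controls (log2 0.98, edgeR adjusted p 0.346). At this depth those levels are few reads, and DESeq2 gave Bbc3 no adjusted p.

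Pmaip1, which encodes the BH3-only protein NOXA, rested on 1 library. It read 17.3, 24.2 and 78.1 CPM in Axin1 libraries 1, 2 and 3, against 26.4, 12.3 and 11.1 CPM in controls 1, 2 and 3. The log2 fold change was 1.26 (95% confidence interval -0.46 to 2.99, edgeR adjusted p 0.422) and 0.33 without Axin1 library 3, the library richest in macrophage markers, whose part in the value was not tested. Apaf1, the scaffold that activates caspase 9, read 44.3, 47.7 and 36.9 CPM in Axin1 libraries and 37.1, 35.9 and 28.3 CPM in controls (log2 0.35, edgeR adjusted p 0.326). Aen, an apoptosis-enhancing nuclease gene, had a log2 fold change of 0.18 (95% confidence interval -0.26 to 0.63).

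The 4 repair and nucleotide supply targets were divided. Polk, a translesion DNA polymerase gene, read 46.2, 32.9 and 38.0 CPM in Axin1 libraries 1, 2 and 3, against 29.5, 23.3 and 28 CPM in controls 1, 2 and 3. The groups did not overlap (log2 0.53, SE 0.17, edgeR adjusted p 0.177). Rrm2b, the p53-inducible subunit of ribonucleotide reductase, had a log2 fold change of 0.21, while the damage recognition genes Xpc and Ddb2 had -0.05 and -0.16. Ddb2 lay between 1.04 and 1.79 CPM in Axin1 libraries and between 1.38 and 1.76 CPM in controls, and 23.8% of its exon bases are shared with the oppositely transcribed Acp2.

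In the BCL2 family the pro-survival gene Bcl2l1, which encodes BCL-xL, had the smallest p. It read 197, 227 and 238 CPM in Axin1 libraries 1, 2 and 3, against 165, 152 and 168 CPM in controls 1, 2 and 3. The groups did not overlap, and the spread within each was small beside the gap between their means. The mean was 221 ± 21.3 CPM in Axin1 libraries and 161 ± 8.62 CPM in controls (SD, n = 3 each), or 0.45 higher on the log2 scale (SE 0.11, 95% confidence interval 0.20 to 0.71), at an adjusted p of 0.106 by edgeR and 0.0467 by DESeq2. Bcl2 itself had a log2 fold change of 0.03 (95% confidence interval -0.32 to 0.37) and stood at 41.9 ± 5.11 CPM in Axin1 libraries and 41.1 ± 4.60 CPM in controls (SD, n = 3 each). Mcl1, a short-lived guardian, read 159.9, 99.7 and 188 CPM in Axin1 libraries and 153, 123 and 98.8 CPM in controls (log2 0.25, edgeR adjusted p 0.667).

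The pro-death members counted with the BCL2 family showed no common direction. Bcl2l11, which encodes BIM, read 46.7, 44.1 and 100.2 CPM in Axin1 libraries 1, 2 and 3, against 63.0, 50.9 and 53 CPM in controls 1, 2 and 3. Axin1 libraries 1 and 2 lay below every control and Axin1 library 3 far above. That library also had the highest sum of macrophage markers (3994 CPM) and of dissociation stress and immediate early genes (4061 CPM), whose part in the Bcl2l11 value was not tested. Its log2 fold change was 0.19 with all libraries (edgeR adjusted p 0.812) and -0.29 without Axin1 library 3 (edgeR adjusted p 0.479). Bak1, the other pore former, lay 0.34 higher on the log2 scale (edgeR adjusted p 0.38). Bid, which links caspase 8 to mitochondria, had a log2 fold change of -0.22 and Bad, a BH3-only gene regulated by survival kinases, one of -0.11. Exons of Bad and Bid share 20.5% and 17.7% of their bases with an oppositely transcribed neighbour. Those of Bak1 share 7.35% and 18.2% with separate entries of its oppositely transcribed neighbour Ggnbp1. Whether the counting used strand is not known.

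Caspase genes and Xiap stood at or slightly below control level. Casp9, the initiator caspase of the mitochondrial route, read 33.5, 33.7 and 34.1 CPM in Axin1 libraries 1, 2 and 3, against 43.1, 40.0 and 36.7 CPM in controls 1, 2 and 3. It was the only member whose Axin1 libraries all lay below the controls (log2 -0.24, 95% confidence interval -0.54 to 0.05, edgeR adjusted p 0.389). Casp8, the initiator caspase of death receptors, had a log2 fold change of -0.18 (95% confidence interval -0.48 to 0.12), and Xiap one of -0.01 (95% confidence interval -0.27 to 0.25).

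Counted over members, 4 of 27 p53 network genes (Mdm2, Sesn2, Eda2r and Polk) had all Axin1 libraries above all controls and 0 had them below, against 11.3% and 12.4% of all tested genes. Of the 10 other members Bcl2l1 was above and Casp9 below. Library by library, Axin1 libraries 1, 2 and 3 exceeded every control for 17, 16 and 10 of the 27 p53 network genes, against 30.3%, 27.9% and 32.4% of all tested genes. They lay below every control for 3, 1 and 1 of the 27, against 30.5%, 27.6% and 30.8% of all tested genes. For the 10 BCL2 family, caspase and Xiap genes the numbers were 3, 2 and 4 above and 4, 3 and 4 below. The libraries of a group were not alike: Axin1 library 1 was the highest Axin1 library for 13 of the 27 genes and Axin1 library 3 the lowest for 15, while control 2 was the lowest control for 20 and control 1 the highest for 17.

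As a mean over the 27 genes, the log2 difference from each gene's control mean was 0.55, 0.48 and 0.43 in Axin1 libraries 1, 2 and 3, and 0.19, -0.30 and 0.11 in controls 1, 2 and 3. The controls thus spread over a wider range than the distance from the highest control to any Axin1 library. The median over the 27 genes was 0.415, 0.399 and 0.251 in Axin1 libraries 1, 2 and 3. Controls 1, 2 and 3 had 0.228, -0.319 and 0.0494, so by the median Axin1 library 3 lay close to control 1. For the 10 BCL2 family, caspase and Xiap genes the mean difference was -0.03, -0.02 and 0.17 in Axin1 libraries, and 0.07, -0.05 and -0.02 in controls. With Bax, Bbc3 and Pmaip1 counted with the BCL2 family, the median log2 fold change was 0.39 over 24 p53 network genes and 0.19 over 13 others.

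**Figure D3:**
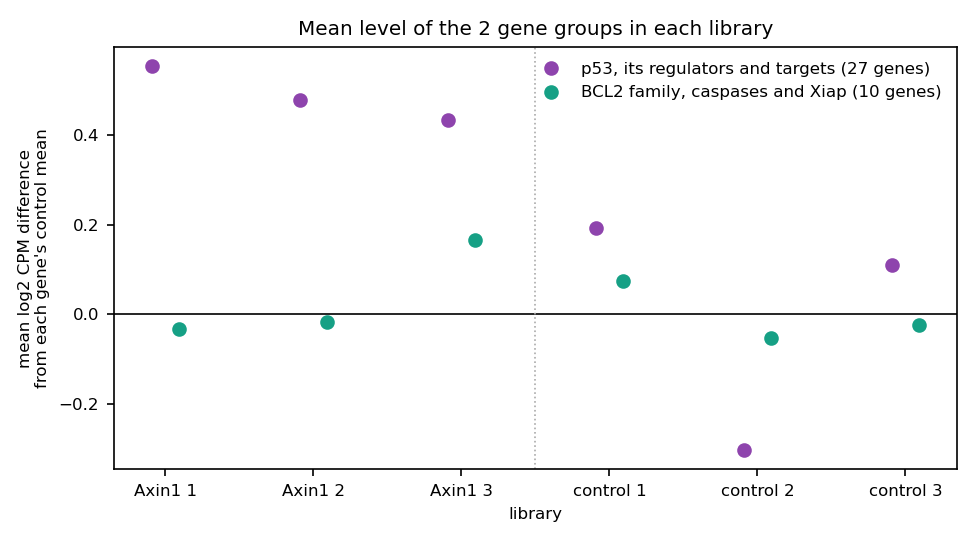
Mean log2 CPM difference from each gene's control mean (y axis) in each of the 6 libraries (x axis, Axin1 overexpression left), for 27 p53 network genes (purple) and 10 BCL2 family, caspase and Xiap genes (green). The p53 network mean is 0.43 to 0.55 in the Axin1 libraries and spreads from -0.30 to 0.19 over the controls, while the other mean stays between -0.05 and 0.17.

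Further genes of these pathways were examined from lists that hold none of the members apart from Sesn2. Of 34 tested further p53 targets, 22 had a positive log2 fold change (median 0.13) and 0 passed edgeR's test, with 1 higher and 1 lower at an unadjusted p under 0.05 and 0 called by DESeq2. These were Rap2b, a RAS-like GTPase gene (log2 0.48), and Tlr3, the receptor of double-stranded RNA (log2 -0.50), both at an edgeR adjusted p of 0.154. The difference in median between the 27 p53 network genes and these further targets was not tested. Of 19 tested kinases, ligases and cofactors of p53, 10 were positive and 0 passed edgeR's test. The 2 with an unadjusted p under 0.05, both lower, were Rpl11 (log2 -0.37) and Rpl5 (-0.32), ribosomal proteins that bind MDM2, and DESeq2 called 0.

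Cell cycle genes listed as repressed by p53 through p21 and the DREAM complex leaned the other way, chiefly in Axin1 libraries 2 and 3. Of 20 tested, 17 had a negative log2 fold change, the median was -0.22, and 0 passed edgeR's test or DESeq2's. The 2 with an unadjusted p under 0.05, both lower, were E2f1, a transcription factor of S phase entry, and Ccne1, a cyclin of the same transition. E2f1 read 11.6, 11.3 and 11.7 CPM in Axin1 libraries 1, 2 and 3, against 21.3, 16.4 and 14.1 CPM in controls 1, 2 and 3 (log2 -0.58, edgeR adjusted p 0.206). Ccne1 read 5.91, 6.68 and 7.61 CPM in Axin1 libraries and 11, 9.20 and 10.5 CPM in controls (log2 -0.60, edgeR adjusted p 0.225). In neither gene did the groups overlap. Below every control lay Axin1 library 1 for 3, library 2 for 13 and library 3 for 14 of the 20 genes. Over all tested genes these shares were 30.5%, 27.6% and 30.8%. Mean log2 CPM over the 20 genes was 6.488, 6.264 and 6.215 in Axin1 libraries 1, 2 and 3. Controls 1, 2 and 3 had 6.656, 6.46 and 6.4, so that Axin1 library 1 lay among them. Axin1 library 1 also had the highest mean difference of the p53 network genes (0.553). The part of p53 in these cell cycle values was not tested.

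Of 11 tested integrated stress response genes, which include Sesn2, 9 were positive (median 0.59) and 0 passed edgeR's test, with 2 higher at an unadjusted p under 0.05 and 1 called higher by DESeq2. The gene DESeq2 called was Herpud1, a gene of endoplasmic reticulum protein quality control, at 102, 70.2 and 134 CPM in Axin1 libraries and 68.4, 48.5 and 60.7 CPM in controls (log2 0.79, edgeR adjusted p 0.166).

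**Figure D4:**
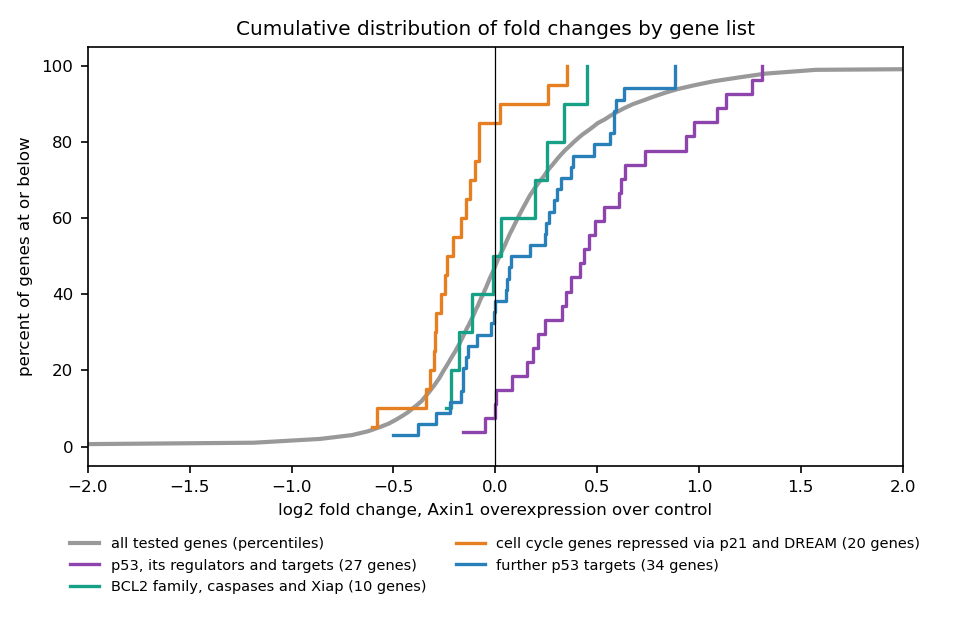
Percent of genes (y axis) at or below a log2 fold change (x axis, Axin1 overexpression over control) for all tested genes (grey), 27 p53 network genes (purple), 34 further p53 targets (blue), 10 BCL2 family, caspase and Xiap genes (green) and 20 cell cycle genes listed as repressed through p21 and DREAM (orange). The purple curve lies to the right with a median of 0.43, and the orange lies to the left with a median of -0.22. The green has a median of 0.01, close to 0.02 for the grey, but a narrower range, from -0.24 to 0.45.

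Levels per transcript length, from the deposited RPKM, ran from 449 RPKM for Plk2 to 0.938 RPKM for Bbc3 over the control means of tested members. In the order of control means, Plk2 came first at 625 ± 190.3 RPKM in Axin1 libraries and 449 ± 143 RPKM in controls (SD, n = 3 each), followed by Trp53 at 376 ± 57.7 and 372 ± 48.6 RPKM in the same groups, a pair whose control ranges overlap. Btg2, Cdkn1a and Bax formed the next tier, at 170 ± 17.7, 177 ± 5.80 and 238 ± 50.7 RPKM in Axin1 libraries and 151 ± 21.1, 148 ± 38.3 and 142 ± 46.1 RPKM in controls, and did not differ from each other beyond their spread in the controls. The pro-survival genes ranked Bcl2l1, Mcl1, Bcl2 at 92.7, 42.5 and 6.21 RPKM in Axin1 libraries and 67.1, 35.3 and 5.76 RPKM in controls. Among BH3-only genes Bad was highest, at 61.1 ± 4.84 RPKM in Axin1 libraries and 65.4 ± 5.95 RPKM in controls, and Bbc3 lowest, at 1.87 ± 0.573 and 0.938 ± 0.447 RPKM in the same groups. The RPKM of Bax divided by that of Bcl2l1 was 3.14, 2.85 and 1.82 in Axin1 libraries 1, 2 and 3, against 1.89, 1.65 and 2.73 in controls 1, 2 and 3, so that this ratio overlapped between groups. The RPKM of Eda2r, Fas, Ddb2, Bcl2, Bcl2l11 and Casp8 was not a fixed multiple of the reads across libraries (off by 1.81% to 29.1%), and their RPKM is less certain than their counts.

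**Figure D5:**
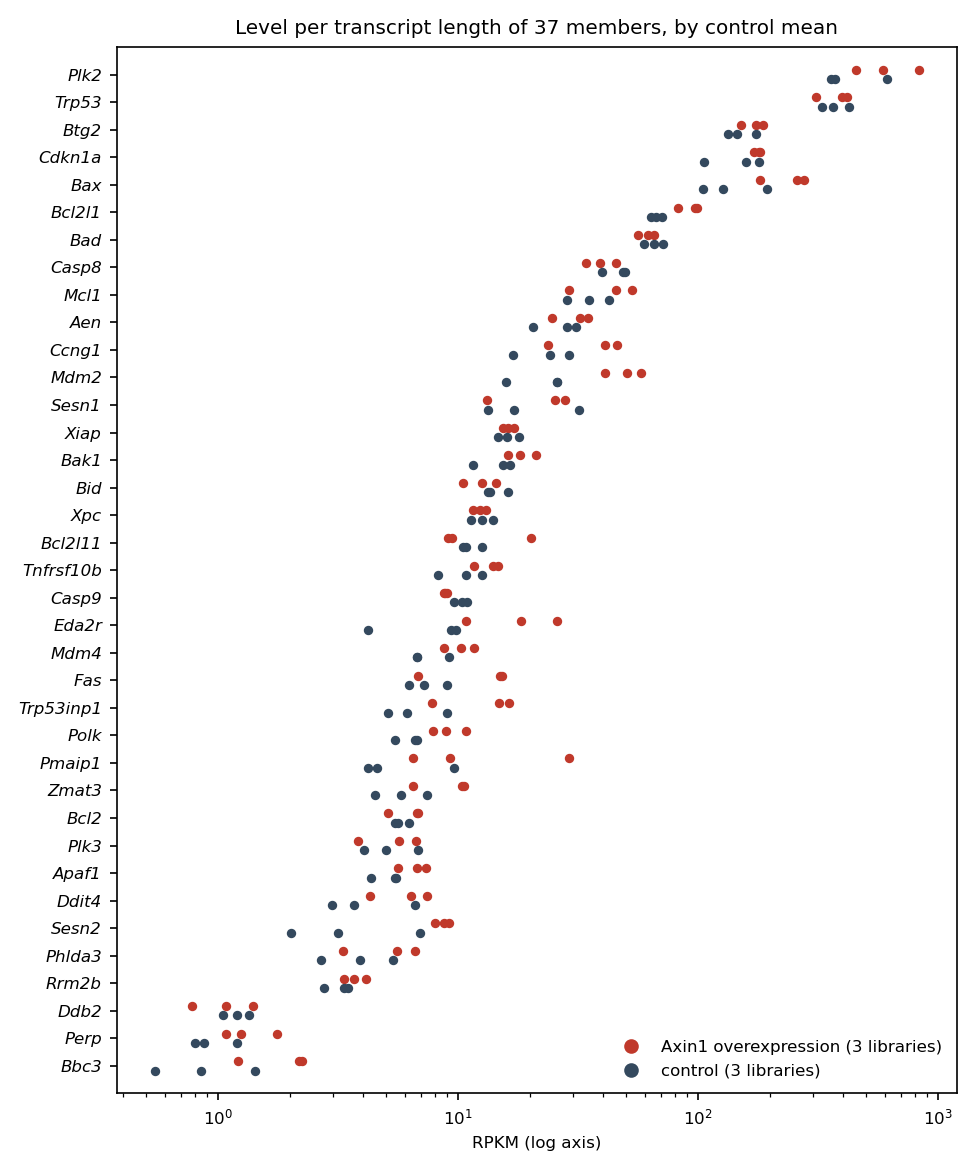
Deposited RPKM (x axis, log scale) of 37 members in each library, ordered by control mean from top, with Axin1 overexpression libraries (red) above control libraries (dark) in each row and Gdf15 left out because of libraries at 0. Plk2 and Trp53 lead and Ddb2, Perp and Bbc3 come last, and Mdm2 shows groups set apart.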

How the data were processed

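The authors deposited 1 table per library with read counts and RPKM (FPKM) values for 22958 RefSeq gene entries, per the file headers. Bowtie and mm9 are named in the submitters' processing notes without version, and neither the counting program nor its strand setting is known here. The deposited counts were tested as whole numbers, and the deposited RPKM served for levels per length and in 1 alternative. Low counts were filtered with filterByExpr (10 reads in enough libraries, 15 in total), which kept 12661 genes, 37 of the 38 members among them. The 3 Axin1 and 3 control libraries were compared in edgeR 4.0.16 (R 4.3.3) by the quasi-likelihood test with robust estimation, TMM factors and no covariate. P-values were adjusted by Benjamini-Hochberg over all tested genes (threshold 0.05). Alternatives were DESeq2 1.42.0, limma 3.58.1 on log2(RPKM + 1), RLE and upper-quartile factors, no filter, no robust estimation, replicate blocks and each library left out. The labels call the replicates biological and state no litter, so p-values measure the spread between these libraries. Every pair of libraries differed beyond counting noise. The fit was tested before use on counts simulated with a common dispersion. It called 4 of 49 genes changed 1.5-fold, 21 of 50 changed 2-fold and 47 of 47 changed 4-fold. Changes of 2-fold or less were thus often missed.

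Members and lists were chosen with earlier results of these data known, so lists are described by counts and medians without a test. Any member could be named, and from other lists up to 4 genes of smallest p. Promoters are RefSeq windows of GRCm38.p6, matched by symbol for 30 members. Exon overlaps are from GENCODE M21.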

Additional observations from a re-analysis of the deposited data

How the results depend on the processing

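Calls depended on the tool and on single libraries. Genes called over the whole table numbered 107 by the edgeR test as described, 197 without the low-count filter, 51 without robust estimation and 672 by DESeq2. With 1 library left out they numbered 0 (without control 2 or Axin1 library 2) to 695 (without control 3), with 10, 33 and 18 without control 1, Axin1 library 1 and Axin1 library 3. Of p53 network genes, 0 were called in the described fit, 1 (Mdm2) without the filter, 4 by DESeq2 and 0 to 2 with 1 library left out. Of BCL2 family, caspase and Xiap genes, 1 was called by DESeq2. The median log2 fold change of the p53 network lay between 0.33 and 0.59 with 1 library left out and that of the other 10 genes between -0.06 and 0.06. With Bax, Bbc3 and Pmaip1 added, the median of these others was 0.19.

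Libraries with the same replicate number deviated from their group means with correlations of 0.234, 0.152 and -0.0229. The labels do not say that a replicate number marks a shared litter or day, so these numbers were not taken as pairs. The first 2 of these correlations came from libraries that also share a title number, whereas control 3 and Axin1 library 3 share none. The crossed pairs of the first 2 gave -0.249 and -0.215. The labels do not say what a title number marks, and 2 pairs are too few to take it as pairing. With the replicate block 105 genes were called (0.829%), among them 1 p53 network gene, Mdm2 (adjusted p 0.015). With title numbers as replicate block, over the 4 libraries whose number occurs in both groups, 1500 genes were called (11.9%, with 7.67% called higher). They included, all higher, 9 p53 network genes (Mdm2, Ccng1, Plk2, Sesn2, Trp53inp1, Zmat3, Eda2r, Bax and Polk) and 1 other member, Bcl2l1, and the median of the other 10 was -0.10. That fit leaves out control 3 and Axin1 library 3.

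Of 37 tested members, 28 kept their sign in all 14 alternatives. For the 9 others, the fits with 1 library left out ranged from -0.0965 to 0.116 for Trp53, from -0.188 to 0.241 for Plk3, from -0.154 to 0.500 for Sesn1, from -0.129 to 0.0438 for Xpc, from -0.380 to 0.0128 for Ddb2, from -0.0587 to 0.122 for Bcl2, from 0.0514 to 0.472 for Mcl1, from -0.294 to 0.397 for Bcl2l11 and from -0.0686 to 0.0613 for Xiap. With limma on RPKM, Trp53 was at 0.0106 and Xiap at 0.00588. With title numbers as replicate block, Trp53 was at 0.0929, Plk3 at -0.244, Mcl1 at -0.126 and Bcl2l11 at -0.324. Plk3 was at -0.00548 with RLE factors, -0.0377 with upper-quartile factors, -0.00396 without the filter and -0.0129 with DESeq2, and Bcl2 was at -0.0167 with upper-quartile factors. The cause was not tested.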

Other observations

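Further death pathway genes that are not members were also examined. Of 16 other tested BCL2 family and related genes, 8 had a positive and 8 a negative log2 fold change and 0 passed edgeR's test, with 1 higher and 2 lower at an unadjusted p under 0.05 and 1 in each direction called by DESeq2. Bmf, a BH3-only gene, read 24.8, 26.7 and 25.2 CPM in Axin1 libraries 1, 2 and 3, against 33.2, 47.2 and 40.7 CPM in controls 1, 2 and 3 (log2 -0.66, edgeR adjusted p 0.106, DESeq2 adjusted p 0.0217). Bag3, a co-chaperone gene that is part of the heat shock response, read 141, 75.4 and 121 CPM in Axin1 libraries and 59.9, 43.3 and 67.6 CPM in controls (log2 0.98, edgeR adjusted p 0.125, DESeq2 adjusted p 0.0041). In both genes the groups did not overlap.

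Of 22 other tested caspase and death receptor pathway genes, 10 were positive and 12 negative and 0 passed edgeR's test, with 2 higher and 1 lower at an unadjusted p under 0.05 and 1 called by DESeq2. Tradd, the adaptor of TNF receptor 1, read 12.1, 16.9 and 9.77 CPM in Axin1 libraries 1, 2 and 3, against 1.05, 1.61 and 5.79 CPM in controls 1, 2 and 3. Its groups did not overlap, and its log2 fold change of 2.20 (SE 0.61, edgeR adjusted p 0.141, DESeq2 adjusted p 0.00152) exceeded that of every member. At this depth the Tradd levels in controls 1 and 2 are few reads. Cflar, which encodes an inhibitor of caspase 8 activation, had a log2 fold change of 0.39 and Diablo, which encodes an antagonist of XIAP, one of -0.33 (edgeR adjusted p 0.246 and 0.243).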
